A study of Rattus norvegicus with 36 samples.

Results

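The comparison described here sets whole lungs of 7-day-old Brown Norway rats against whole lungs of 7-day-old Fisher rats. It rests on the 4 arrays titled Brown Norway at postnatal day 7 (PN7) and the 4 titled Fisher at PN7, which are 8 of the 36 arrays in the series. The series also holds the same strains at PN1 and PN14, and Lewis rats at all 3 ages, profiled on one-colour Illumina beadchips. No treatment or engineered allele is named for any group, and the labels do not say that the replicates came from separate animals, so that a p-value here sets a difference against a spread that may be technical only. Each strain is one inbred stock, so the comparison is between those stocks. All 8 arrays lie on one slide, with Fisher in sections D to G and Brown Norway in sections H to K, so that strain and position on the slide cannot be told apart.

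The Brown Norway rat is widely used in studies of allergic airway disease because it readily makes IgE and responds to inhaled allergen. In the first weeks after birth the rat lung forms its alveoli: ridges of tissue called secondary septa grow into the air sacs, and epithelium, fibroblasts and capillary endothelium multiply before the walls thin. Dividing cells switch on a shared programme of genes for DNA copying, spindle assembly and chromosome segregation, and its RNA level in a tissue follows both how many cells divide and how much of that RNA each one holds. The class I histocompatibility genes of the rat (RT1) are among the most variable genes between inbred strains.

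The 8 arrays detected between 9481 and 10549 of 22226 probes at a detection p under 0.01, and their median raw signals lay between 213.8 and 237.4. Replicates correlated at 0.994 to 0.998 within a strain and at 0.979 to 0.985 between the strains. Each of the 8 arrays was nearest to its own group among the 9 groups of the series, and the first principal component, with 71.1% of the variance, separated the strains. Lung markers were present where they could be measured, but no probe was annotated to Foxj1 (ciliated cells), Pecam1 (endothelium) or Acta2 (mesenchyme). Sftpc and Sftpb, surfactant proteins of alveolar type II cells, Ager of alveolar type I cells, Scgb1a1 of club cells, Eln, the elastin gene, and Cdh5 of endothelium were each detected on 8 of 8 arrays. Of the arrays used for other ages, the fifth of Brown Norway at PN1 lay among the PN14 arrays of its strain, and the third of Brown Norway at PN14 among those at PN1. They were kept as labelled, and values at those ages are also given from the 34 arrays without them. The Brown Norway and Fisher arrays of each age share one slide, except that the first of these 2 arrays lies on another.

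Levels below are log2 normalised intensities, and differences are Brown Norway minus Fisher on that scale. At PN7, 2939 of 10427 tested probes differed between the strains (28.2%), by limma with a Benjamini-Hochberg adjusted p under 0.05. Of these, 1394 were higher in Brown Norway (13.4%) and 1545 lower (14.8%). Most differences were small, with a median size of 0.26 among the called probes, but 150 probes were at least 2-fold apart. Of all tested probes 1.03% were at least 2-fold higher and 0.412%, or 43, at least 2-fold lower. The median over all tested probes was -0.01. In whole tissue, fewer cells of a type and less RNA per cell cannot be told apart. With median scaling in place of quantile normalisation, 993 probes passed, 821 higher (7.87%) and 172 lower (1.65%), around a median of 0.07. The counts of list members below stand beside these shares, 13.4% higher and 14.8% lower over all probes, and 7.87% and 1.65% under median scaling.

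The named genes furthest above Fisher came from membranes, endosomes, chromatin and the class I family. Cavin2, which coats caveolae, read 12.17, 12.005, 12.06 and 12.07 in Brown Norway and 8.71, 8.80, 8.73 and 9.03 in Fisher. The groups lay far apart, and the difference was 9.56-fold (log2 3.26, SE 0.07, limma adjusted p = 5.92e-08). Washc3, a subunit of the WASH complex that drives actin growth on endosomes, read 11.49 to 11.64 against 8.38 to 8.58 (log2 3.12, SE 0.05). Hmgn1, a nucleosome-binding protein, read 14.53 to 14.63 in Brown Norway and 11.25 to 12.03 in Fisher (log2 2.98, SE 0.15). Cd2bp2, a spliceosome protein, followed at 2.55, and Nfib, a transcription factor without which mouse lungs stay immature, at 2.42. Nfib read 13.27 to 13.44 in Brown Norway, and its Fisher arrays held 10.79, 10.79, 10.68 and 11.38. Lewis lung at PN7 was on the Brown Norway side for Washc3, Hmgn1 and Cd2bp2, with means of 11.64, 14.34 and 11.80, and on the Fisher side for Cavin2 and Nfib, with means of 8.79 and 10.83. Sequence differences between the strains under a probe can change its signal, and they were not examined.

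**Figure D1:**
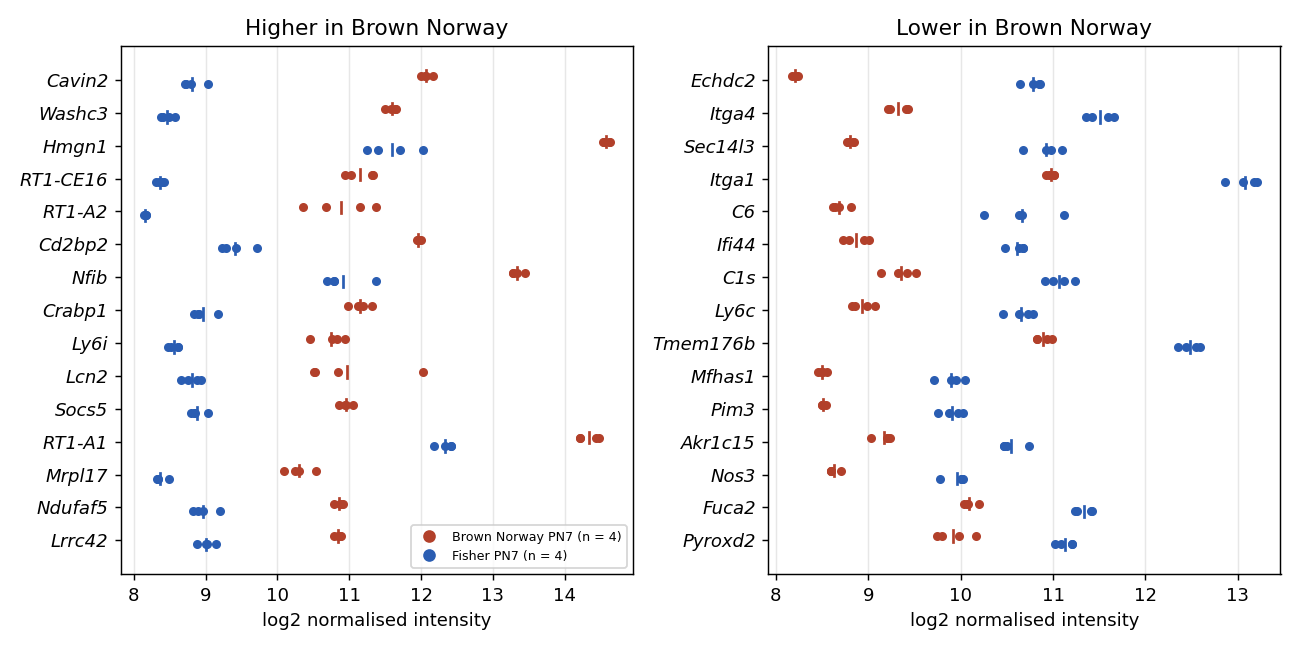
Log2 normalised intensity of the 15 named genes furthest above and the 15 furthest below Fisher in Brown Norway lung at PN7. Each point is an array (4 per strain) and each vertical line is a group mean. The genes were chosen by their differences on these same arrays, and the groups do not overlap for any of the 30 shown. Of all tested probes 14.2% did not overlap with Brown Norway higher, and 16.5% with Brown Norway lower.

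Class I histocompatibility genes stood out within that set. RT1-CE16 read 11.02, 11.33, 10.94 and 11.32 in Brown Norway against 8.42, 8.39, 8.31 and 8.35 in Fisher, a 6.89-fold difference (SE 0.09 on the log2 scale, limma adjusted p = 5.77e-07). RT1-A2 read 10.36 to 11.37 in Brown Norway and was not well above background on any of the 4 Fisher arrays, which makes it at least 6.4-fold higher. The RT1-A2 probe passed the detection filter through the Brown Norway arrays alone, and its call rests in part on the spread of background signal. RT1-A1 was 4.01-fold higher at a high level on every array, 14.21 to 14.48 against 12.18 to 12.42. RT1-N3 was 1.10 higher in log2 and RT1-CE5 0.85, while RT1-S3 was lower at -0.65. These genes are close copies of each other, and a probe for one can read another.

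Of 22 measured class I presentation genes, these included, 8 were higher and 4 lower (median log2 0.07), against 13.4% and 14.8% of all probes. Under median scaling 7 were higher and 1 lower (median 0.21). The immunoproteasome subunit Psmb8 was higher at 0.65 and the peptide transporter Tap1 at 0.27, whereas the loading chaperone Tapbp was lower at -0.47. B2m, the shared light chain, read 0.08 and did not pass. Among 5 class II presentation genes 0 were higher and 3 lower, namely RT1-DMb at -0.39, Cd74 at -0.32 and Ifi30 at -0.32, and 0 of these passed under median scaling.

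Other genes raised in Brown Norway included secreted and signalling proteins. Lcn2, an iron-scavenging protein of neutrophils and stressed epithelium, read 10.53, 12.02, 10.51 and 10.84 against 8.66 to 8.94, a 4.47-fold difference (SE 0.31, limma adjusted p = 0.00171) with the second Brown Norway array well above the other 3. Socs5, a suppressor of cytokine signalling, was 4.2-fold higher with little spread, 10.86 to 11.05 against 8.79 to 9.03. Ly6i, of the Ly6 surface protein family, was 4.55-fold higher. The mitochondrial genes Mrpl17, of the mitochondrial ribosome, and Ndufaf5, an assembly factor of complex I, were 3.8-fold and 3.72-fold higher, and Lrrc42 was 3.57-fold higher. Scgb3a2, a secretoglobin of airway epithelium, read 14.33 to 14.51 against 12.70 to 13.14 and was 2.8-fold higher. Crabp1, which binds retinoic acid in the cytoplasm, read 10.99, 11.19, 11.31 and 11.12 against 8.90, 8.84, 9.18 and 8.91, a 4.58-fold difference (SE 0.09, limma adjusted p = 1.68e-06).

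Among the named genes that fell, the first by size was Echdc2, a mitochondrial protein of the enoyl-CoA hydratase family. It read 8.17, 8.24, 8.21 and 8.22 in Brown Norway, not well above background on any array, against 10.85, 10.64, 10.86 and 10.79 in Fisher. Echdc2 was at least 5.89-fold lower (limma adjusted p = 3.33e-08). Its probe passed the detection filter through the Fisher arrays alone, and the p-value rests in part on the spread of background signal. Alpha chains of integrins, the receptors that hold cells to matrix and to each other, followed. Itga4, which guides leukocytes out of vessels, read 9.21 to 9.43 against 11.35 to 11.66 (log2 -2.19, SE 0.08). Itga1, part of a collagen receptor, read 10.92 to 11.01 against 12.86 to 13.21 (log2 -2.10, SE 0.07). Sec14l3, a lipid-transfer protein of the airway, read 8.78, 8.83, 8.77 and 8.85 against 10.93, 11.09, 10.68 and 10.98 (log2 -2.11, SE 0.08). Lewis lung at PN7 had a mean of 11.81 for Itga4 and 10.71 for Echdc2, close to Fisher, but 9.31 for Sec14l3, nearer to Brown Norway.

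Complement and coagulation genes included several sizeable falls. Of 23 measured, 10 were lower and 3 higher, against 14.8% and 13.4% of all probes (5 and 2 under median scaling, against 1.65% and 7.87%). The list as a whole was centred near 0, with a median of -0.01 (0.07 under median scaling) and 11 of 23 members above 0. C6, of the membrane attack complex, read 8.62, 8.81, 8.64 and 8.68 in Brown Norway and 10.67, 11.11, 10.26 and 10.63 in Fisher, a 3.94-fold difference (SE 0.16, limma adjusted p = 7.75e-05). C1s, a protease of the classical pathway, was 3.29-fold lower, at 9.14 to 9.52 against 10.91 to 11.23. The alternative-pathway factors Cfd and Cfb were lower at -0.92 and -0.73, C4b at -0.82 and the C1 inhibitor gene Serping1 at -0.51. The 3 chains of C1q, made by macrophages, lay between 0.06 and 0.13 and did not pass. Higher were F3, which encodes tissue factor (0.85), Vwf (0.20) and Plat (0.19).

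Among 21 interferon-induced genes 9 were lower and 2 higher, against 14.8% and 13.4% of all probes (4 and 1 under median scaling, against 1.65% and 7.87%). Ifi44 was 3.35-fold lower, at 8.73 to 9.01 against 10.48 to 10.68. Ifi47, an interferon-induced GTPase, was not well above background on any Brown Norway array and was at least 1.83-fold lower. Its call has the same limit as that of Echdc2, since the probe passed the detection filter through the Fisher arrays alone. Ifi27 was lower at -0.56 and the GTPases Mx1 and Mx2 at -0.17 and -0.23, while the antiviral membrane protein Ifitm1 was higher at 0.45. The transcription factor Irf7 read -0.07 and did not pass.

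Nos3, the nitric oxide synthase of endothelium, read 8.60, 8.60, 8.71 and 8.60 in Brown Norway and 9.78 to 10.02 in Fisher, a 2.51-fold difference (SE 0.06, limma adjusted p = 2.66e-06). Other endothelial genes went either way. Of 31 measured, 6 were higher and 7 lower, against 13.4% and 14.8% of all probes (5 and 1 under median scaling). The adhesion molecule Cdh5 was lower at -0.40, and the angiopoietin receptor Tek and its relative Tie1 at -0.35 and -0.48. Lyve1, of lymphatic vessels and some macrophages, was 2.26-fold higher, at 12.53 to 12.56 against 11.10 to 11.52. Apln, a peptide of sprouting endothelium, was higher at 0.84 and the leukocyte adhesion molecule Vcam1 at 0.64.

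The kinase gene Pim3 was 2.63-fold lower, Mfhas1 2.64-fold and the aldo-keto reductase gene Akr1c15 2.59-fold. Ly6c, in mice a surface marker of monocytes, was 3.29-fold lower, Tmem176b, a membrane protein of antigen-presenting cells, 3.01-fold, the fucosidase gene Fuca2 2.36-fold and Pyroxd2 2.31-fold. For all 7 the 4 arrays of one strain lay wholly on one side of the other's, as for 16.5% of all tested probes with Brown Norway lower. All 7 were named because they passed on these same arrays.

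The cell division programme was higher in Brown Norway at PN7. Of 41 measured cell cycle genes, 39 were higher in Brown Norway and 0 lower, against 13.4% of all tested probes called higher. The median difference was 0.79, against -0.01 over all probes, and the values of 40 members did not overlap between the strains, against 14.2% of all probes not overlapping in that direction. The mean of the list read 10.37, 10.56, 10.48 and 10.36 in Brown Norway and 9.58, 9.36, 9.93 and 9.55 in Fisher, so the strains lay apart although the third Fisher array stood above the other 3 Fisher arrays. Median scaling gave 38 members higher and 0 lower with a median of 0.93, and the deposited values 40 and 0 with a median of 1.21.

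The members that differed most act in mitosis. Tpx2, which builds spindle microtubules, read 11.03, 11.36, 11.35 and 11.02 in Brown Norway and 9.49, 8.91, 10.18 and 9.44 in Fisher, a 3.21-fold difference (SE 0.24, limma adjusted p = 0.00163). Ccna2, cyclin A, read 10.88, 11.27, 10.84 and 10.80 against 9.19, 8.88, 9.99 and 9.12, a 3.15-fold difference (SE 0.23, limma adjusted p = 0.00132). On each of these genes the third Fisher array was the highest and the second the lowest of its group, and neither reached the Brown Norway arrays. Prc1, which bundles the microtubules of the midzone, Kif20a, a kinesin of cytokinesis, Cdk1, the mitotic kinase, and Ccnb2, one of its cyclins, were 2.95-fold, 2.94-fold, 2.87-fold and 2.86-fold higher. Kifc1 and Kif22, motor proteins of the spindle, and Ttk, the kinase of the spindle checkpoint, were 3.29-fold, 3.17-fold and 3.1-fold higher. They were not on the list and were named for their large differences on these same arrays.

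Genes of DNA copying were higher too. The ribonucleotide reductase gene Rrm2 was 2.79-fold higher and the thymidylate synthase gene Tyms 1.69-fold. All 6 subunits of the replicative helicase passed, from 0.40 for Mcm3 to 0.93 for Mcm2, and the sliding clamp gene Pcna was higher at 0.56. Of the genes that act at entry to the cycle, Ccne2, a cyclin E, was higher at 0.55 and the transcription factor E2f1 at 0.21. Ccnd1, cyclin D, read 0.16 and Ccne1, the other cyclin E, 0.05, and these were the 2 members of the list that did not pass. Mki67, the proliferation marker, was 1.31-fold higher at a dim signal of 8.74 to 8.88 against 8.38 to 8.56. The chromatin genes H2az1, Hmgb2 and Hmgn2, whose products are a variant histone and chromosome-binding proteins rather than replication histones, were the 3 measured members of a replication histone list, and all were higher, at 0.57, 0.87 and 0.40.

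Promoters of mitotic genes are shown to describe the sequence at the start of members of this list. Of the 41 measured genes 31 have an entry among the RefSeq promoter sequences of build GRCr8, which run from 250 bases before to 50 after the start of the gene. The 4 with the largest differences among those 31 are printed, each read along its own strand. Capitals mark TTTGAA, the core of the cell-cycle homology region, and CCAAT, searched on both strands, where they read TTCAAA and ATTGG. Neither motif contains the other. The promoters lie at chr1:143659231-143659530 (plus strand), chr18:26504172-26504471 (plus), chr20:19265043-19265342 (plus) and chr8:79981609-79981908 (minus).
Prc1: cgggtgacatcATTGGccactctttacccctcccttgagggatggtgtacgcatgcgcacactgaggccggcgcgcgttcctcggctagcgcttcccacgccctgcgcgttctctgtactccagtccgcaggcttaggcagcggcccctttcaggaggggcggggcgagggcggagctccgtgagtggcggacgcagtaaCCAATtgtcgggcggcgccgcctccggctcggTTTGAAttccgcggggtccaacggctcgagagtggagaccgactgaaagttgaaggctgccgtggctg
Kif20a: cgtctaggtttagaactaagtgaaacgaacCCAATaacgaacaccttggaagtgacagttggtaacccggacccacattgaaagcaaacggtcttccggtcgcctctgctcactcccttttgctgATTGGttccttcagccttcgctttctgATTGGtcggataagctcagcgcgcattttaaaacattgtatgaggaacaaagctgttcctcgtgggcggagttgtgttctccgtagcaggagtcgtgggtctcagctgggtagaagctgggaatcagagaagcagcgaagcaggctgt
Cdk1: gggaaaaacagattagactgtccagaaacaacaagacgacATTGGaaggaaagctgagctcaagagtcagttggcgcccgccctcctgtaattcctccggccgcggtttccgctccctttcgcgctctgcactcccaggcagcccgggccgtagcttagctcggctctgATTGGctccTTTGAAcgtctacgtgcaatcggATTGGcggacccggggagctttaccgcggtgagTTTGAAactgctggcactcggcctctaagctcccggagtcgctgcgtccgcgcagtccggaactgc
Ccnb2: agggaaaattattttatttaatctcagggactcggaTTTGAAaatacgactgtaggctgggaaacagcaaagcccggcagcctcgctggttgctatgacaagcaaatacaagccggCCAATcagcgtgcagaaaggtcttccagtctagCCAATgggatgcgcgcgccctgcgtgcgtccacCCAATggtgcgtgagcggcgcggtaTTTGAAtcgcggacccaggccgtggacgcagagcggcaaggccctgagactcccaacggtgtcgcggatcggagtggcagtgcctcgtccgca
TTTGAA occurred in 18 of the 31 promoters (58.1%) and in 18.3% of all 33469 promoters of this length. CCAAT occurred in 23 (74.2%), against 37.5% of all, and both in 14 (45.2%), against 7.4%. Prc1 held 1 TTTGAA and 2 CCAAT, Cdk1 and Ccnb2 2 and 3 each, and Kif20a 3 CCAAT with no TTTGAA in this window. The list counts 1 promoter per gene, while the 33469 are all entries, whether or not their gene was measured here. These shares describe a list of cell division genes and do not depend on the strain difference. A match is a string of letters and not a measured site.

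The same genes ran the other way at PN1. In a fit of all 36 arrays, 40 of the 41 were lower in Brown Norway than in Fisher at PN1 and 0 higher, against 18% of 11339 probes called lower at that age, with a median of -1.003. At PN14 the median was 0.00, and 1 member was higher and 0 lower, against 5.58% and 6.93% of probes. The change of the strain difference itself was tested: it was positive from PN1 to PN7 for 40 of 41 members, against 10.3% of probes, and the PN7 difference exceeded that at PN14 for 36 of 41, against 2.97% of probes. Ccna2 moved from -2.53 at PN1 to 1.65 at PN7 and -0.06 at PN14. By group, the mean of the list in Fisher fell from 10.63 ± 0.08 (SD, n = 4) at PN1 to 9.59 ± 0.24 (n = 4) at PN7 and 9.31 ± 0.06 (n = 4) at PN14. In Brown Norway it was 9.39 ± 0.17 (n = 5), 10.45 ± 0.10 (n = 4) and 9.32 ± 0.20 (n = 4), and in Lewis 10.19 ± 0.02 (n = 3), 10.15 ± 0.11 (n = 4) and 9.15 ± 0.04 (n = 4). At PN14 the Brown Norway and Fisher means differed by less than their SDs. From 34 arrays the median difference was -0.97 at PN1 and -0.05 at PN14.

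**Figure D2:**
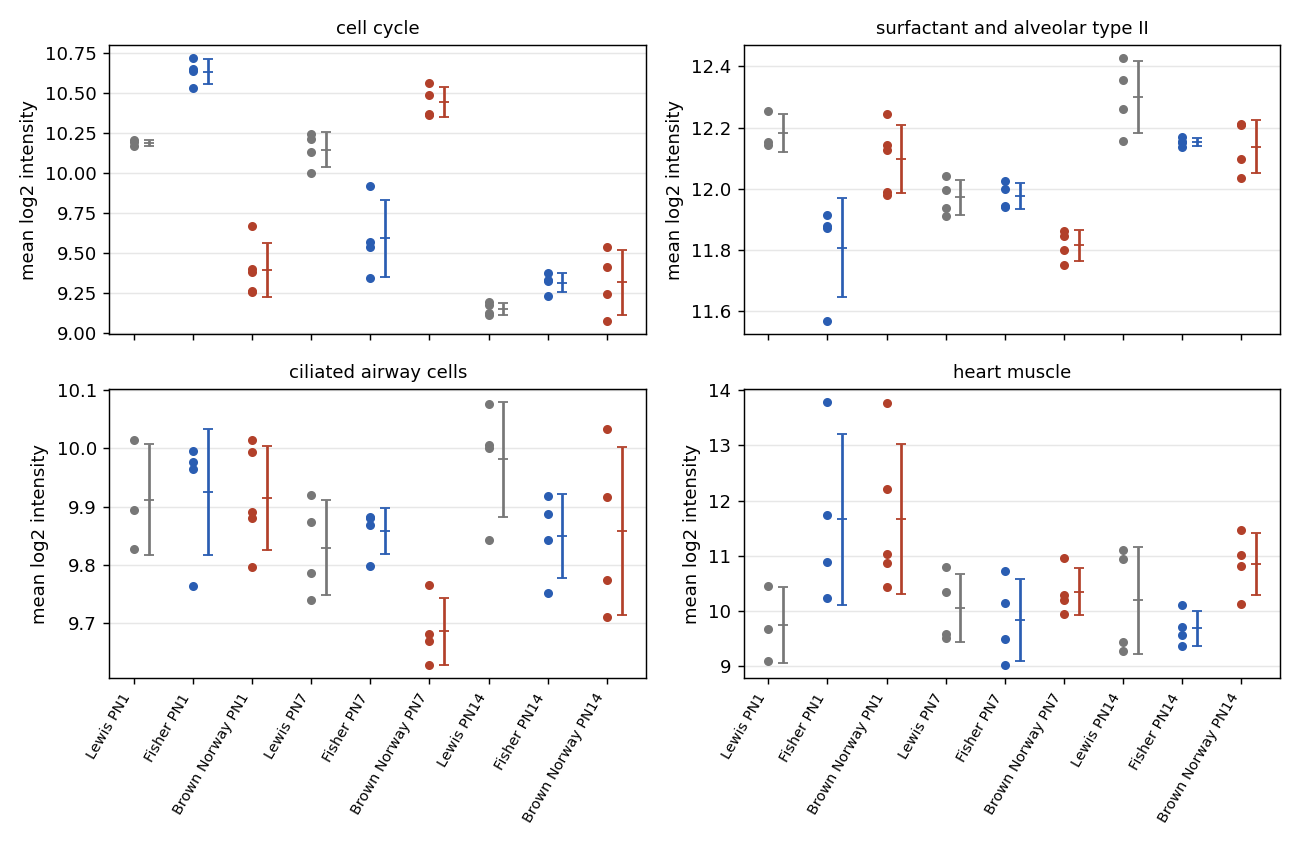
Mean log2 normalised intensity of 4 gene lists on each of the 36 arrays, by strain and age. Points are arrays, the horizontal mark beside them is the group mean and the bar is 1 SD. The cell cycle list is highest in Fisher at PN1 (10.63) and in Brown Norway at PN7 (10.45), while the heart muscle list overlaps between the strains at PN7.

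Not every large difference at PN7 behaved in this way. Of the 150 probes at least 2-fold apart at PN7, 105 had the same sign at PN1, 136 at PN14 and 104 at both, while over all tested probes 52.3%, 61.4% and 43% did. At both other ages 92 of the 150 (61.3%) passed with the same sign, against 8.6% of all tested probes. With the sign opposite to PN7, 41 (27.3%) passed at PN1, 40 of them higher in Brown Norway at PN7, and 0 at PN14, against 15.9% and 1.42% of all. The number that passed at neither other age was 12 (8%), against 61.9%. Of all 2939 probes called at PN7, 21.6% passed with the same sign at both other ages. With the opposite sign 20.8% of them passed at PN1, and 43.5% passed at neither other age. From 34 arrays 70.7% of the 150 had the same sign at PN1, 81.3% at PN14 and 70.7% at both, 41 and 0 passed with the opposite sign, and 5 passed at neither. Cavin2 kept nearly the same difference at each age, 3.07 at PN1 and 3.14 at PN14, as did Echdc2 at -2.52 and -2.71. Over the whole array the strain difference at PN7 differed from that at PN1 for 2116 of 11339 probes (18.7%), 1167 positive and 949 negative (8.37%), and from that at PN14 for 428 (3.77%), 337 positive and 91 negative (0.803%). From 34 arrays 755 probes passed against PN14.

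**Figure D3:**
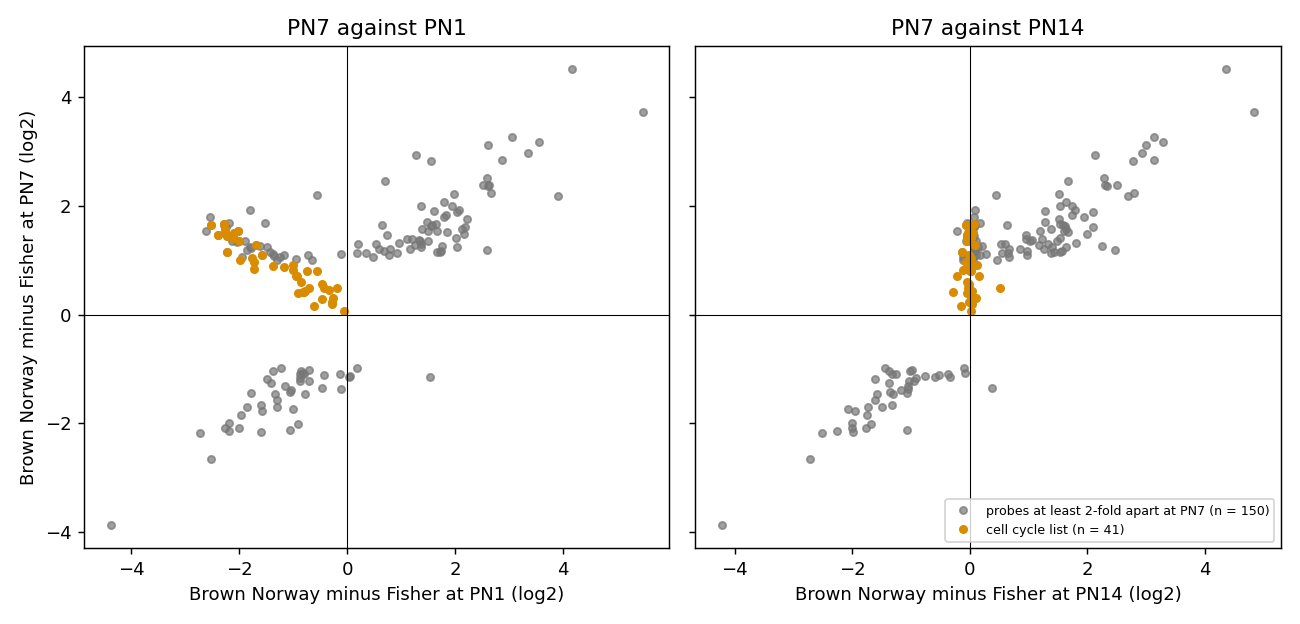
Strain difference (Brown Norway minus Fisher, log2) at PN7 on the vertical axis against that at PN1 (left) and PN14 (right), from the fit of all 36 arrays. Grey points are the 150 probes at least 2-fold apart at PN7 and orange points the 41 cell cycle genes. The cell cycle genes fall in the upper left at PN1 and along the vertical line at PN14, while most other probes lie on the rising diagonal.

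Several genes outside the cell cycle also differed in their strain difference between ages. Crabp1, 2.20 higher at PN7, read -0.56 at PN1 and 0.44 at PN14, and its change passed against both. Its Lewis mean at PN7 was 10.88, on the Brown Norway side. Apoe, a lipid carrier of macrophages, was lower at PN7 at -1.16 and higher at PN1 at 1.54. Klf9, a gene induced by glucocorticoids, was lower at PN7 at -0.56 (11.77 to 11.98 against 12.43 to 12.51) and higher at PN1 at 2.05. The lipase gene Pnpla2, the polyamine enzyme gene Sat1 and the fibrinogen chain Fgg were lower at PN7 at -0.79, -0.62 and -0.78, and read 0.61, 0.42 and 0.08 at PN1. Rtel1, a telomere helicase, was lower at every age, at -1.62, -0.91 and -1.49, with the smallest difference at PN7. These changes also passed from 34 arrays, while Klf9, Sat1 and Fgg did not pass at PN7 under median scaling.

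Genes that respond quickly to stimuli, hormones or the hour of day were followed next. Of 26 immediate early genes 1 was higher and 1 lower (1 and 0 under median scaling), with a median of 0.02. Fos read -0.01, Egr1 0.17 and Junb 0.21, and the passing members were Jund at 0.43 and Ccn2 at -0.27. At PN1 the median of the same list was 0.70. The 20 glucocorticoid response genes had 1 higher, Lcn2, and 5 lower, led by Klf9 at -0.56 and Sgk1, a kinase of salt transport, at -0.47, against 13.4% and 14.8% of all probes. Under median scaling Lcn2 passed and 0 were lower. The median of the list was -0.01 at PN7 (0.11 under median scaling) and 1.00 at PN1. The clock genes had 1 of 10 higher, Cry1 at 0.30, and 1 lower, Nr1d1 at -0.49, and neither passed under median scaling.

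**Figure D4:**
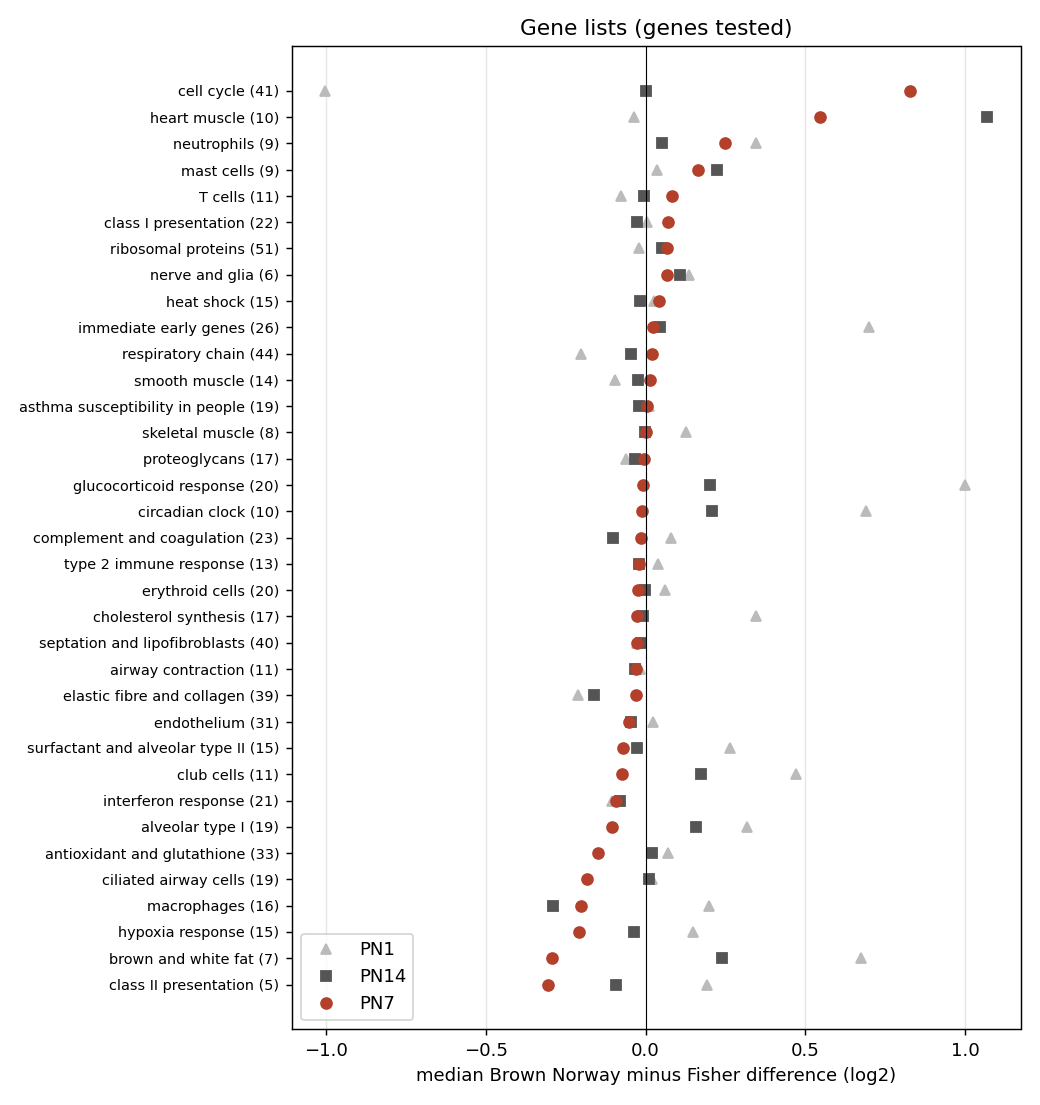
Median Brown Norway minus Fisher difference (log2) of each gene list with at least 4 genes tested, at PN7 (red circles), PN1 (light triangles) and PN14 (dark squares), from the fit of all 36 arrays. The cell cycle list stands furthest to the right at PN7 and furthest to the left at PN1 (-1.003), and the glucocorticoid and immediate early lists are near 0 at PN7 and at 1.00 and 0.70 at PN1.

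Matrix genes changed one by one. Of 39 elastic fibre and collagen genes 8 were higher and 13 lower, against 13.4% and 14.8% of all probes (6 and 3 under median scaling). Col3a1, a fibrillar collagen, read 14.53, 14.35, 14.45 and 14.40 against 13.13, 12.87, 13.15 and 13.10, a 2.59-fold difference (SE 0.07, limma adjusted p = 5.42e-06), whereas Col1a1 was lower at -0.30 and Col1a2 read 0.03 and did not pass. Col14a1 was higher at 0.71 and Col15a1 lower at -0.72. The protease inhibitor Timp1 was 2.09-fold lower, at 11.53 to 11.72 against 12.61 to 12.75, and the matrix protein Sparc 1.7-fold lower. Eln read 14.60, 14.51, 14.74 and 14.64 against 14.91, 14.63, 15.03 and 15.06. Those groups overlapped and elastin did not pass (log2 -0.28, limma adjusted p = 0.0651).

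Small proteoglycans, which space collagen fibrils, included large changes in both directions. Dcn, decorin, was 2.08-fold lower, at 12.55 to 12.74 against 13.63 to 13.85, and Ogn 1.68-fold lower. Fmod, fibromodulin, was 2.26-fold higher, at 12.47 to 12.57 against 11.17 to 11.44. Of 17 measured, 3 were higher and 5 lower, against 13.4% and 14.8% of all probes (3 and 2 under median scaling).

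Genes of septation and lipid-storing fibroblasts had 4 of 40 higher and 8 lower, against 13.4% and 14.8% of all probes. Under median scaling 3 were higher and 1 lower. Besides Nfib and Crabp1, the retinoic acid synthesis gene Aldh1a2 was higher at 0.24 and Igfbp3 at 0.32. Lpl, lipoprotein lipase, read 13.44 to 13.56 against 14.28 to 14.40 and was 1.8-fold lower, and Hhip, an inhibitor of hedgehog signalling, was lower at -0.38. The receptor Pdgfra, of the fibroblasts that make septa, read 0.05 and Fgfr2 -0.09, and neither passed.

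The epithelium differed in a few genes. Among 15 surfactant and alveolar type II genes 0 were higher and 4 lower, against 13.4% and 14.8% of all probes. Under median scaling 2 were lower. Sftpa1, surfactant protein A, read 13.87, 13.52, 14.12 and 14.05 against 14.99, 14.78, 14.74 and 14.88, a 1.95-fold difference (SE 0.13, limma adjusted p = 0.00107). Sftpc read -0.12 (13.90 to 14.14 against 14.07 to 14.15), Sftpb 0.04 and the lung transcription factor Nkx2-1 0.08, and none of these 3 passed. The protease Ctsh was lower at -0.45.

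Alveolar type I genes had 2 of 19 higher, among them Hopx at 0.30, and 4 lower, against 13.4% and 14.8% of all probes. Under median scaling 1 was higher and 0 lower. Ager read 0.03 and Aqp5 -0.28, and neither passed. Akap5, a scaffold of protein kinase A, read 9.17 to 9.52 against 10.37, 10.49, 10.37 and 9.33, so the groups overlapped through the fourth Fisher array, and it passed at -0.85 (limma adjusted p = 0.0341) but not under median scaling or without any one array other than Fisher replicate 4.

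Club cell genes had Scgb3a2 higher, Sec14l3 lower and 9 of 11 not passing. Scgb1a1 sat at the top of the measured range on every array, at 15.97 to 16.07, where a difference would be compressed. Of 19 genes of ciliated cells 10 were lower and 1 higher, against 14.8% and 13.4% of all probes (1 and 1 under median scaling, against 1.65% and 7.87%). Dynlrb2, a dynein light chain, read 9.62, 10.10, 9.90 and 9.85 against 10.78, 10.61, 10.99 and 10.71, a 1.87-fold difference (SE 0.11, limma adjusted p = 0.000802). The other 9 were lower by less, from -0.14 for Ccdc39 to -0.35 for Tekt1, and the tubulin gene Tubb4b, which many cells use, was higher at 0.39.

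Blood and immune cells left mixed traces. Il4 and Il13, the cytokines of type 2 immunity, were detected on 0 of 36 arrays. Il33, an alarmin of the lung, was lower at -0.40 (11.22 to 11.73 against 11.78 to 12.08, limma adjusted p = 0.0348), and lost its call without Fisher replicate 1, 2 or 4 or without Brown Norway replicate 2. Stat6, the transcription factor that IL-4 and IL-13 activate, was lower at -0.48, and Retnla, a product of alternatively activated macrophages, was lower at -0.92. Of 13 type 2 genes 1 was higher and 4 lower, against 13.4% and 14.8% of all probes (1 and 1 under median scaling, where Il33 and Retnla did not pass). Asthma susceptibility genes from human studies had 2 of 19 higher, Ada at 0.39 and Gstp1 at 0.30, and 4 lower, led by the carnitine transporter Slc22a5 at -0.65. These counts stand against 13.4% and 14.8% of all probes, and under median scaling 1 was higher and 1 lower.

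Of 9 mast cell genes 5 were higher and 1 lower, against 13.4% and 14.8% of all probes (3 and 1 under median scaling). The median of the list was 0.15. The proteases Cma1 (0.87), Mcpt10 (at least 1.29-fold), Cpa3 (0.19), Mcpt1 (0.15) and Tpsab1 (0.15) were higher, at dim group means of 8.33 to 9.49 in Brown Norway. Mcpt10 was undetected on every Fisher array and passed the detection filter through the Brown Norway arrays alone. Kit, the receptor for stem cell factor, read 9.01 to 9.14 against 9.75 to 10.13 and was 1.84-fold lower. Macrophage genes had 0 of 16 higher and 6 lower (2 under median scaling), with Apoe first and the protease Ctsk at -0.79. Neutrophil genes had 2 of 9 higher, Lcn2 and Fcnb, and 1 lower, Cd177, whose values overlapped between the strains and which did not pass under median scaling. The second Brown Norway array had the highest mean of the neutrophil list, at 9.83 against 8.83 to 9.08 on the other 3, and also the highest Lcn2. S100a8 and Ngp, granule genes of neutrophils, read 0.58 and 0.68 and did not pass, and the part of neutrophil RNA in the Lcn2 value was not tested. Of 11 T cell genes 0 passed, with a median of 0.07.

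Red cell genes had 4 of 20 higher and 1 lower, against 13.4% and 14.8% of all probes (3 and 0 under median scaling). Hemgn, a nuclear factor of erythroid precursors, read 10.58, 11.62, 11.03 and 10.64 against 9.57, 8.99, 9.46 and 9.25, a 3.15-fold difference (SE 0.24, limma adjusted p = 0.00153), and Ank1, a protein of the red cell membrane, was 2.35-fold higher. The transcription factors Gata1 and Klf1 read 0.09 and 0.03 and did not pass. The mean of the red cell list read 10.53, 11.08, 10.82 and 10.54 in Brown Norway. In Fisher it read 10.83, 10.47, 10.79 and 10.51, so the strains overlapped. Hbb-b1 was lower, at 14.98 to 15.81 against 16.08 to 16.11, and Hbb read 16.09 to 16.12 on every array. Both sit at or near the top of the range, and globin genes are close copies.

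Antioxidant and glutathione genes had 3 of 33 higher and 13 lower (1 and 2 under median scaling). Sod3, the extracellular superoxide dismutase, read 10.69, 10.58, 10.72 and 10.32 against 11.71, 11.76, 11.79 and 11.59, a 2.2-fold difference (SE 0.09, limma adjusted p = 7.28e-05). The glutathione transferases Mgst2 and Gstt2 were lower at -0.76 and -0.56. Hypoxia response genes had 0 of 15 higher and 8 lower (0 and 0 under median scaling), led by the mitochondrial kinase Pdk1 at -0.80 and the oxygen-sensing factor Epas1 at -0.44. Ribosomal protein genes had 10 of 51 higher and 2 lower, with a median of 0.07, against 13.4% and 14.8% of all probes, and 5 and 0 with a median of 0.23 under median scaling. Respiratory chain genes had 1 of 44 higher and 2 lower, and 0 and 0 with a median of 0.17 under median scaling.

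Marker lists of neighbouring tissues were measured as well. Heart muscle genes had 0 of 10 passing, yet all 10 read above 0 in Brown Norway minus Fisher, with a median of 0.54. Their mean varied between arrays, at 9.97 to 10.97 in Brown Norway and 9.04 to 10.73 in Fisher, so the strains overlapped. Acta1, a sarcomere actin on the skeletal muscle list, read 10.91, 9.63, 9.68 and 9.84 against 8.28, 8.54, 9.27 and 8.92 (log2 1.26, limma adjusted p = 0.0211). Its highest array, Brown Norway replicate 1, also had the highest heart mean, a part in the result that was not tested, and the call was lost without Fisher replicate 1 or 2. Fat genes read 9.50 to 10.07 in Brown Norway and 9.67 to 10.66 in Fisher. Of 7 fat genes 0 were higher and 3 lower, against 13.4% and 14.8% of all probes (0 and 2 under median scaling). Lpl and Cfd, described above, are on that list, and the part of fat in their values was not tested. Of 3 liver genes 2 were lower, Fgg at -0.78 and Cyp2e1 at -0.73 (1 under median scaling). Genes of nerve and glia had 0 of 6 passing, oesophagus 0 of 2, and thymus 1 of 3, Cd1d1 at -0.19, which turned to 0.016 and did not pass under median scaling.

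Of the 150 probes at least 2-fold apart, 43 have no gene name here, and these include the probes with the largest differences on the array, 4.49 and -3.92. Among all 2939 called probes 806 are unnamed.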

How the data were processed

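Total RNA of whole lung was profiled per the labels. Per the file headers, the deposited bead table gives each probe an unnormalised intensity and a detection p-value. A second deposited table, made with lumi per the submitters' processing notes, holds log2 values and served as an alternative. The 72 columns of bead spread and bead number were not used.

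Intensities of the 8 PN7 arrays were background-corrected (normexp, offset 16), quantile normalised and logged with neqc of limma 3.58.1 in R 4.3.3, which shrinks folds of dim probes. The test was kept to probes detected (p under 0.01) on 3 or more of the 8 arrays, which left 10427 and removed 11799. Plots used matplotlib 3.10.9. lmFit and eBayes gave 2-sided p-values, Benjamini-Hochberg adjusted over the tested probes, with 8.0 moderated degrees of freedom. The age contrasts were fitted on all 36 arrays (11339 probes, 28.6 degrees of freedom). The number of arrays limits the precision. Where a probe was undetected on every array of a group, the fold is a bound against the lowest detected signal. On simulated data for this comparison, 200 of 10427 probes were changed. Of these, 91% were recovered at a change of 0.5 and 98% at a change of 1, with 13 false calls. In the real data 28.2% of probes were called, so these rates need not hold there.

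GEO's platform annotation named 1 gene for 13192 probes, several for 0 and none for 9034. Of the named, 13151 matched the current gene table and 0 were renamed. The tested probes cover 7502 genes. The brightest probe stands for a gene in its list. Members and the 40 gene lists were chosen with earlier results of these data known, so counts over lists are descriptions. Named genes had to pass and be detected on all 4 arrays of a group: the 15 highest and 15 lowest, up to 4 per list, the 8 in each direction that also pass both age contrasts, and 10 fixed genes. Other list members are examples chosen after their values were seen. The alternatives were median scaling, the deposited values, offset 50, other filters, other array sets, a replicate block, slide as a block, trended robust eBayes, each array left out and, chosen after seeing the data, cyclic loess.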

Additional observations from a re-analysis of the deposited data

Results flagged for a closer look

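Some values of named genes or list means stood apart from the other 3 arrays of their group, with a gap to the nearest array above 0.829 of the range of the group. Of 362 such tests 30 met this, and chance flags about 1 in 20. Each value is a log2 normalised intensity. On Brown Norway replicate 1 this was so for Acta1 at 10.91 (the others 9.63 to 9.84), Scgb1a1 at 16.01 (the others 16.04 to 16.04) and the mean of the brown and white fat list at 10.07 (the others 9.50 to 9.52). On Brown Norway replicate 2 this was so for Ccna2 at 11.27 (the others 10.80 to 10.88), Kif20a at 10.84 (the others 10.48 to 10.53) and Rps15 at 13.51 (the others 13.81 to 13.84). On Brown Norway replicate 3 this was so for Msmo1 at 10.21 (the others 10.50 to 10.56), Nos3 at 8.71 (the others 8.60 to 8.60), Akr1c15 at 9.03 (the others 9.20 to 9.23) and the mean of the alveolar type I list at 11.13 (the others 11.19 to 11.20). On Brown Norway replicate 4 this was so for Rps9 at 12.97 (the others 12.72 to 12.73), Hbb at 16.12 (the others 16.11 to 16.11), Ndufa6 at 13.18 (the others 12.99 to 13.01), Stat6 at 8.22 (the others 8.31 to 8.32), Chit1 at 8.91 (the others 8.78 to 8.80) and the mean of the hypoxia response list at 10.53 (the others 10.49 to 10.50). On Fisher replicate 1 this was so for Ifitm1 at 9.95 (the others 10.11 to 10.14) and Hbb-b1 at 16.08 (the others 16.10 to 16.11). On Fisher replicate 2 this was so for Col3a1 at 12.87 (the others 13.10 to 13.15), Sgk1 at 14.42 (the others 14.24 to 14.26), Nos3 at 9.78 (the others up to 10.02), Akr1c15 at 10.74 (the others 10.47 to 10.50) and the mean of the ciliated airway cells list at 9.81 (the others 9.88 to 9.89). On Fisher replicate 3 this was so for Tmem97 at 10.94 (the others 10.71 to 10.73) and the mean of the interferon response list at 9.48 (the others 9.50 to 9.51). On Fisher replicate 4 this was so for Nfib at 11.38 (the others 10.68 to 10.79), Mrpl17 at 8.49 (the others 8.32 to 8.33), Apln at 10.89 (the others 10.33 to 10.38), Scgb1a1 at 15.97 (the others 16.05 to 16.07) and Akap5 at 9.33 (the others 10.37 to 10.49).

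The strain difference at PN7 also differed from that at another age for several named genes, by the limma contrast on all 36 arrays. Values are the PN7 difference minus the other age's, in log2. Against PN1, the cell division genes gave 3.88 for Kifc1, 3.94 for Tpx2, 3.92 for Kif22, 4.18 for Ccna2, 3.20 for Ttk, 3.57 for Prc1, 3.83 for Kif20a and 1.23 for Mki67. The same contrast was positive for RT1-A2 (1.25), Crabp1 (2.76), Mrpl17 (0.63), Plcxd3 (0.21), Rtel1 (0.72) and Itga4 (0.55). It was negative for Washc3 (-0.39), Lcn2 (-1.73), Il33 (-0.75), Tspan33 (-0.68), Clec2l (-0.32), Sat1 (-1.02), Arhgap8 (-0.35), Fgg (-0.84), Pnpla2 (-1.39), Fuca2 (-0.52), Nos3 (-0.34), Pim3 (-0.69), Ly6c (-0.73) and C6 (-1.11). Against PN14, the cell division genes gave 1.73 for Kifc1, 1.60 for Tpx2, 1.55 for Kif22, 1.71 for Ccna2, 1.51 for Ttk, 1.53 for Prc1, 1.56 for Kif20a and 0.42 for Mki67. The same contrast was positive for Crabp1 (1.76), Ndufaf5 (0.62), Clec2l (1.04) and Rtel1 (0.60). It was negative for Tspan33 (-0.48), Sat1 (-0.56), Plcxd3 (-0.49), Arhgap8 (-0.43), Fgg (-0.74) and Pnpla2 (-0.96).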

How the results depend on the processing

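The count of probes that differed at PN7 (2939) was 993 under median scaling, with 821 higher and 172 lower, and 950 of the 993 were also called by quantile normalisation. With all 36 arrays in the fit 1828 passed, 835 of them lower. The deposited values gave 347 probes at least 2-fold higher and 146 at least 2-fold lower. For the change of the strain difference from PN1 to PN7, median scaling gave 1165 probes with 104 negative, and 34 arrays gave 1535 negative. Against PN14, median scaling gave 169 (168 positive, 1 negative), and 34 arrays gave 755 with 277 negative. The other planned settings kept these counts within 1.5 times, and cyclic loess, added after seeing the data, gave 2864 at PN7.

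Leaving out each PN7 array in turn gave 2286 to 3198 probes at PN7 (1139 to 1512 higher, 1147 to 1686 lower, 99 to 121 at least 2-fold higher and 41 to 51 at least 2-fold lower). The change from PN1 gave 1783 to 1980 (1038 to 1095 positive, 740 to 885 negative). That against PN14 gave 320 to 462 (267 to 350 positive, 48 to 112 negative), with 48 and 53 negative without Fisher replicate 1 or 2, and 51 and 60 without Brown Norway replicate 1 or 2.

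Of the named genes that passed, 52 lost the call under median scaling and Ndufa6 and Cd1d1 turned to 0.023 and 0.016, while 32 lost it with 36 arrays, 20 with 34, 14 with no filter, 4 in the deposited values, 3 with cyclic loess and 0 with offset 50. The cause of these shifts was not tested. The replicate numbers did not pair the arrays: the deviations of same-numbered arrays correlated at -0.30, -0.14, 0.03 and 0.26, and 2 of 8 arrays correlated best with their own number. With the replicate block 2753 probes passed and 8 named genes lost the call.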
